A study of Homo sapiens with 24 samples.

Results

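The aldo-keto reductases are a family of NADPH-dependent enzymes that reduce aldehydes and ketones to alcohols, and 9 of their genes were followed here by symbol, AKR1A1, AKR1B1, AKR1B10, AKR1C1, AKR1C2, AKR1C3, AKR1E2, AKR7A2 and AKR7A3. All 9 were among the 33113 genes of the count table. RNA was sequenced from HCT116 cells, a human colorectal cancer line, and from HCT116 oxpl-R cells, a resistant line grown out of them after repeated pulses of oxaliplatin, a platinum drug that crosslinks DNA. Both lines carry TetOn-E1A, a doxycycline-inducible gene for the adenoviral protein E1A, and this holds for the control groups as well. Each line was left untreated, given 0.5 µg/mL doxycycline to induce E1A, exposed to 25 µM oxaliplatin for 24 h, or given doxycycline 3 h before oxaliplatin (E1A + oxaliplatin), with 3 samples labelled as biological replicates in each of the 8 groups. HCT116 oxpl-R is 1 derived line, so a difference between the lines is a difference between these populations. The p-values measure the spread between the samples of a group.

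Cells make reactive aldehydes and ketones from peroxidised lipids, glucose, retinoids and steroids, and aldo-keto reductases clear them by transferring hydride from NADPH. AKR1A1 and AKR7A2 are housekeeping reductases of many tissues, AKR1B1 converts glucose to sorbitol, AKR1B10 reduces retinal and lipid aldehydes in the gut, and the AKR1C enzymes act on steroids and prostaglandins. Several of these genes are known targets of the transcription factor NRF2, which is kept low by KEAP1 and released under electrophilic stress.

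The genes in the count table summed to between 24838095 and 37927720 estimated counts per sample (median 29382753). The table at hand ends at the symbol SETP6, so these totals are not the whole depth of the libraries. The row of the E1A transgene followed the labels in all 24 samples, with 114 to 342 counts without doxycycline and 5687 to 26996 with it. The 5687 was in HCT116 E1A + oxaliplatin replicate 1, beside 15715 and 14644 in its group. Without doxycycline the transgene was higher in the resistant line untreated (log2FC 0.62, SE 0.19, adjusted p = 0.0264). Under oxaliplatin alone that line difference was not called (log2FC 0.66, SE 0.29, adjusted p = 0.125). CDKN1A, the p53 target that stops the cell cycle, rose with oxaliplatin in HCT116 cells (log2FC 3.78, SE 0.15, adjusted p = 7.37e-06) and in the resistant line (log2FC 2.88, SE 0.24, adjusted p = 4.8e-05). MDM2, which degrades p53, passed the test in the resistant line (log2FC 2.09, adjusted p = 9.49e-05) and not in HCT116 cells (log2FC 0.54, adjusted p = 0.0716). The 5 epithelial markers (EPCAM, CDH1, KRT8, KRT18, KRT19) summed to 138627 to 475779 counts per sample, against 4 to 85 for the 5 leukocyte markers and 2 to 24 for the 4 endothelial ones. The intestinal list rested on CDX2, since CDX1, KRT20, LGR5 and CDH17 stayed at or below 49 counts. The 5 fibroblast markers summed to 356 to 2026 counts per sample. COL1A1 (339 to 1512) carried most of this list, with COL1A2 at 0 to 489 counts and COL3A1 at 3 to 74. DCN and LUM were at 3 counts or fewer. HCT116 oxaliplatin replicate 3 and HCT116 E1A + oxaliplatin replicate 1 stood apart from the other libraries of that line. Their correlations with the remaining samples of their groups were 0.964 to 0.971 over log2(CPM + 1) of 11097 genes, against 0.985 with each other, and each call that leaving out either of them changes is given with and without it. Within the HCT116 oxpl-R oxaliplatin group all pairs of libraries correlated about as low, at 0.964 to 0.973.

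The 9 genes lie in 4 places of GRCh38 (coordinates from GENCODE 44). None shared an exon base with another gene in that annotation. AKR1C1 (from 4963253 to 4983283, plus strand), AKR1C2 (from 4987775 to 5018031, minus strand) and AKR1C3 (from 5035354 to 5107686, plus strand) sit side by side on chromosome 10, with AKR1E2 further out (from 4786629 to 4848062, plus strand). AKR1B1 (from 134442356 to 134459284, minus strand) and AKR1B10 (from 134527567 to 134541412, plus strand) are neighbours on chromosome 7. AKR7A2 (from 19303965 to 19312144, minus strand) and AKR7A3 (from 19282573 to 19288770, minus strand) adjoin each other on chromosome 1, where AKR1A1 (from 45550543 to 45570049, plus strand) lies apart from them.

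Because the genes of a cluster arose by duplication, reads can fit more than 1 of them. Of the 31-base words of each gene's canonical transcript, 59.3% were shared with another gene for AKR1C2, 46.8% for AKR7A3, 36.7% for AKR1B10, 29.1% for AKR1C1, 26.8% for AKR1C3, 20.6% for AKR1B1, 15.9% for AKR7A2, and 0% for AKR1A1 and AKR1E2. AKR1C2 shared 58.2% of its words with AKR1C1, so the division of reads between AKR1C1 and AKR1C2 is uncertain, and AKR7A3 shared 42.5% with AKR7L. AKR1B10 shared 21.3% with AKR1B15, which held at most 1 count in any sample.

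The likeness of the AKR1C genes extends to the DNA before their starts, shown here because AKR1C1, AKR1C2 and AKR1C3 were all called higher in the resistant line with E1A. RefSeq start sites on GRCh38.p14 were matched for 8 of the 9 genes, all but AKR1B10. The 250 bases before the start of AKR1C1 and AKR1C2 were 96.5% identical in a global alignment, and the other pairs among the 4 AKR1C starts were 66.8% to 72.4% identical. The sequences below give 150 of these bases 5′ to 3′ on the strand of the gene, at chr10:4963265-4963414 (plus) for AKR1C1, chr10:5003858-5004007 (minus) for AKR1C2, and chr10:5048631-5048780 and chr10:5094264-5094413 (both plus) for the pair of AKR1C3 starts. The capitals mark the longest run of bases common to all 4, which includes an inverted CCAAT box.
AKR1C1: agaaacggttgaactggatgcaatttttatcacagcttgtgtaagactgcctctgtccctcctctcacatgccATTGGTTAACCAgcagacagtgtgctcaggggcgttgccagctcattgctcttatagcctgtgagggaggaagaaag
AKR1C2: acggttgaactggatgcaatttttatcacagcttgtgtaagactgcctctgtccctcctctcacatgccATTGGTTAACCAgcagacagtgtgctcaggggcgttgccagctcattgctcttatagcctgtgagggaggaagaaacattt
AKR1C3, start 1: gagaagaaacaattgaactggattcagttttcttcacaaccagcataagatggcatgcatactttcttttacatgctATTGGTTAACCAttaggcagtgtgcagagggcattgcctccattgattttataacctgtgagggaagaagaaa
AKR1C3, start 2: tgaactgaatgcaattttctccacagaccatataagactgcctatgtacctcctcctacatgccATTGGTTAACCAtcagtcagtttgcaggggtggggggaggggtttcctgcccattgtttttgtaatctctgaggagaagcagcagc

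The 12-base run ATTGGTTAACCA occurred, on either strand, in 5 of the 35116 promoter windows of RefSeq genes (0.0142%), which were the 4 AKR1C windows and that of PPFIA2. The letters TGACNNNGC, the core of the antioxidant response element that NRF2 binds, were in 13.4% of all windows (250 bases before to 50 after a start, both strands). Among the 12 windows of the members they were found in both AKR7A2 windows, 3 times in each, and in no AKR1C window. The AKR7A2 windows begin at 19312095 and 19312097 and so hold nearly the same bases. The letters GCGTG, the core of the xenobiotic response element of AHR, were in 36.5% of all windows and in 7 of the 12 member windows, none of them an AKR1C window. Those 7 belong to AKR1B1, AKR1E2, AKR7A2 and AKR7A3. The windows of AKR1B1, of AKR1E2 and of AKR7A2 overlap within each gene, so the 12 are not separate promoters and no excess is read from the count.

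Per length, AKR7A2, AKR1A1 and AKR1B1 made up nearly all of the family's RNA. Normalized counts per kb of the longest transcript in untreated HCT116 cells were 3425 ± 194 (SD, n = 3) for AKR7A2, 2988 ± 11.9 for AKR1A1 and 1767 ± 38.4 for AKR1B1. The other 6 genes were far below, from 46.4 ± 6.31 for AKR1E2 down through AKR1C3, AKR7A3, AKR1B10 and AKR1C1 to 2.57 ± 1.53 for AKR1C2. Neighbours in this order whose samples overlapped were AKR1C3 and AKR7A3, AKR7A3 and AKR1B10, and AKR1C1 and AKR1C2. The abundant 3 held 98.6% of the family's normalized counts per kb in untreated HCT116 cells and 97.7% in untreated HCT116 oxpl-R cells. Under oxaliplatin these shares were 99.0% and 94.8%.

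In untreated HCT116 oxpl-R cells the order was different, with AKR1A1 (4334 ± 516 normalized counts per kb) above AKR7A2 (3055 ± 325), and AKR1C3 (117 ± 23.1) above AKR1E2 (31.2 ± 4.34). With the longest transcript as the length, the samples of AKR1A1 and AKR7A2 did not overlap in either untreated group. Per kb of the union of all exons their means in untreated HCT116 oxpl-R cells were closer, 2524.6 ± 301 and 2335.5 ± 248. AKR1E2, AKR1B10 and AKR7A3 overlapped each other in untreated HCT116 oxpl-R cells, and AKR1C1 overlapped AKR1C2. In HCT116 oxpl-R cells under oxaliplatin AKR1B10 (227 ± 24.6) and AKR1C3 (216 ± 53.2) stood next after the abundant 3, and their samples overlapped. With the union of all exons as the length, 26 of the 72 ranks moved, by at most 2 places; AKR7A2 then came before AKR1A1 in the E1A and E1A + oxaliplatin groups of HCT116 oxpl-R cells.

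**Figure D1:**
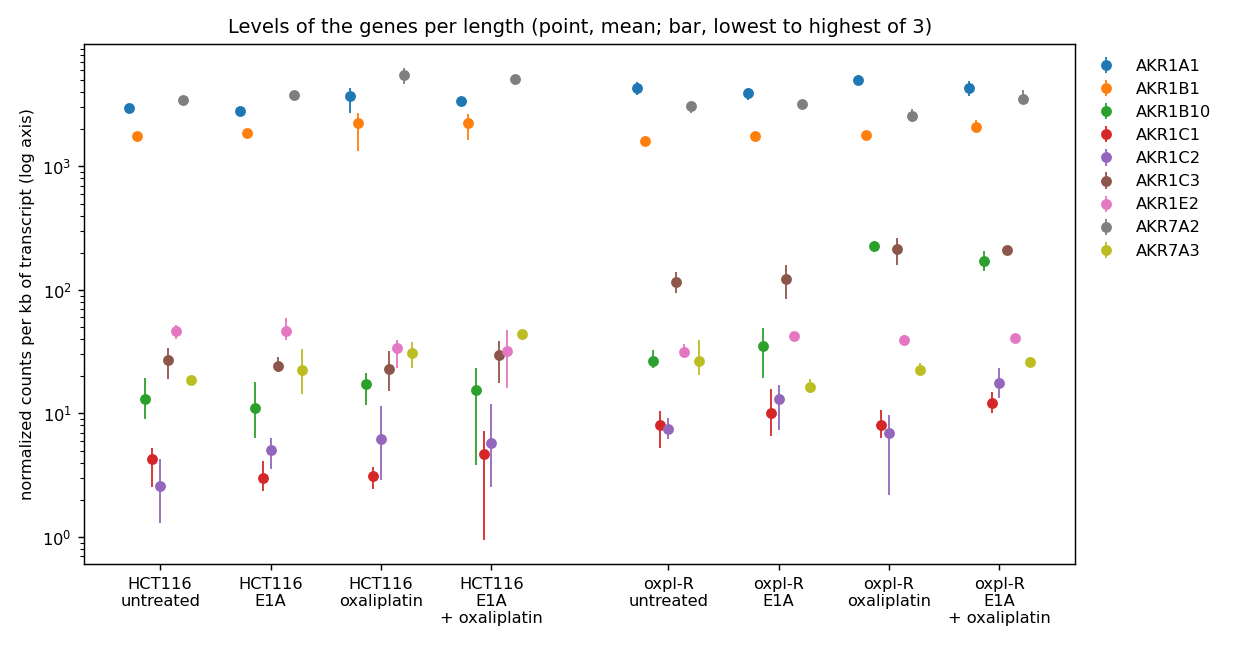
Mean normalized counts per kb of the longest transcript (log axis) for the 9 genes in the 8 groups, with bars from the lowest to the highest of 3 samples. AKR1A1, AKR1B1 and AKR7A2 form an upper tier in every group. In HCT116 oxpl-R cells AKR1C3 lies above the other low genes untreated and with E1A, and AKR1B10 joins it with oxaliplatin, without or with E1A.

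**Figure D2:**
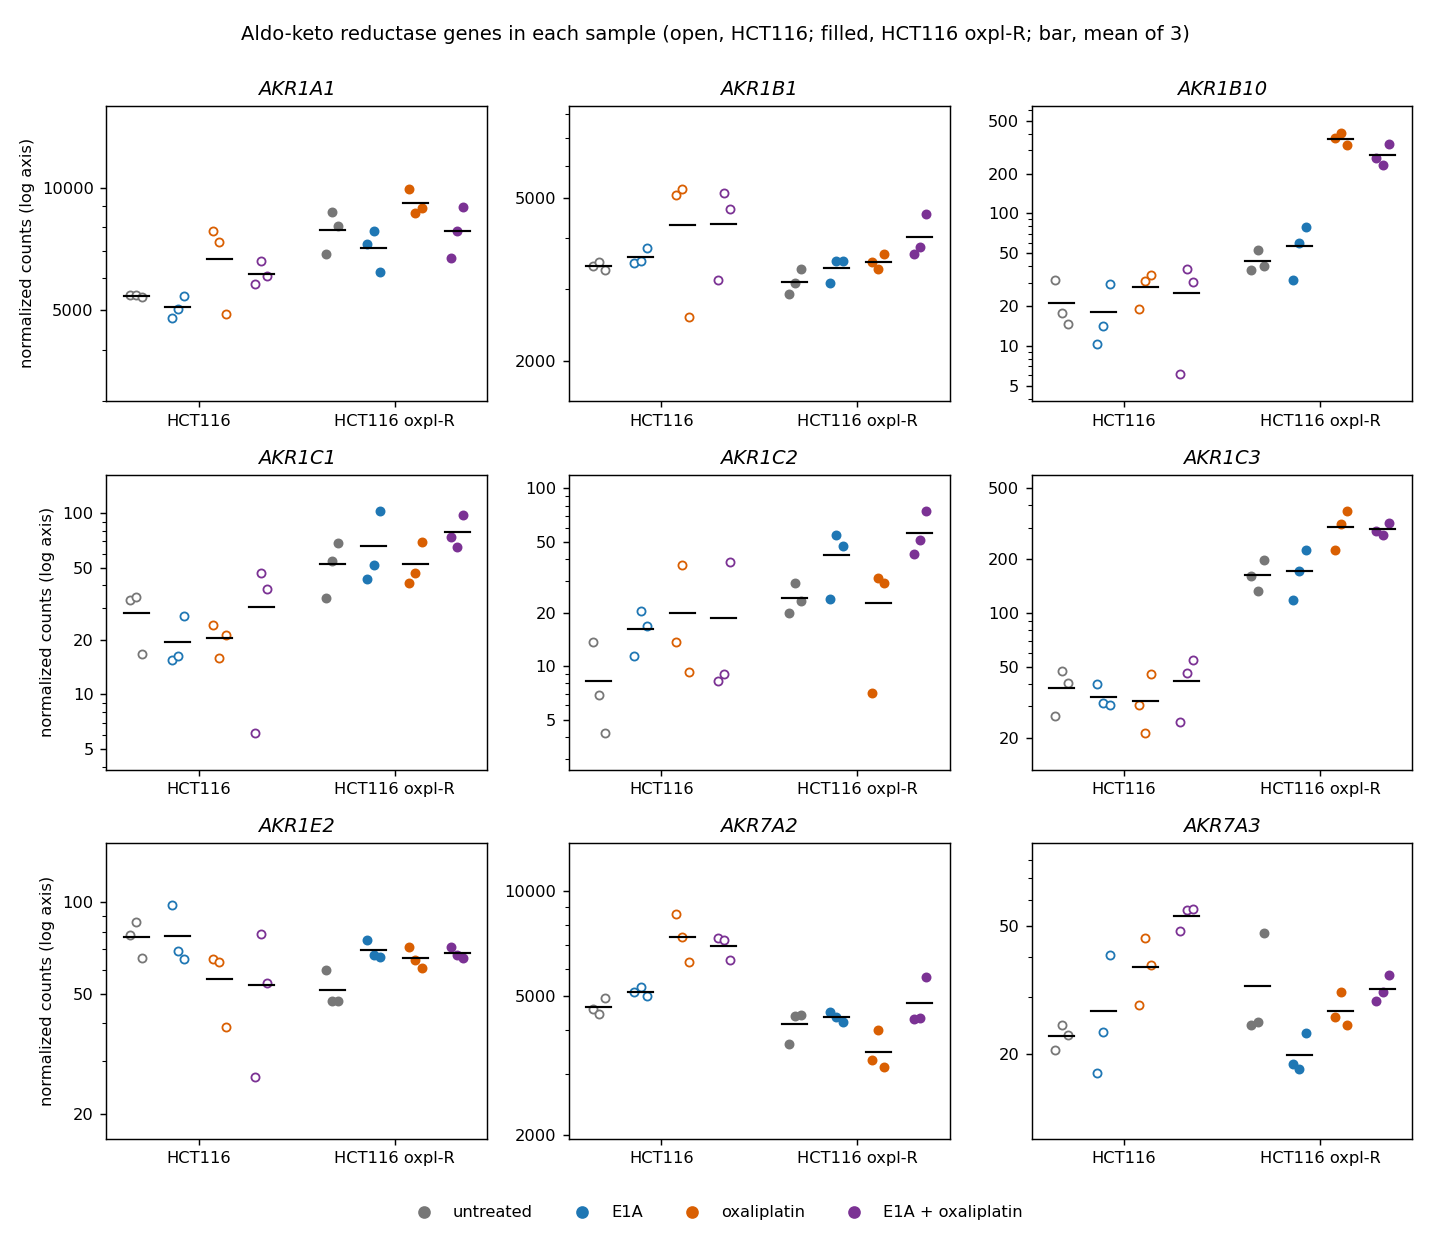
Normalized counts (log axis) of the 9 genes in each of the 24 samples, open circles for HCT116 and filled circles for HCT116 oxpl-R cells, with bars at the mean of 3. AKR1C3 keeps the lines apart under every treatment, AKR1B10 is highest in the 6 HCT116 oxpl-R samples with oxaliplatin, and AKR7A2 is highest in the 6 HCT116 samples with oxaliplatin.

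Most members that passed a test did so between the lines. In untreated cells 2 of the 9 members differed (adjusted p under 0.05, edgeR's quasi-likelihood test over all genes), both higher in HCT116 oxpl-R cells, against 28.3% of the 16715 genes tested, 14.1% in the higher direction. With oxaliplatin 3 of 9 differed, 2 higher and 1 lower (20.7% of all genes tested, 9.77% higher and 10.9% lower). With E1A 5 of 9 differed, all 5 higher (17.7% of all genes, 10.6% higher), and with E1A + oxaliplatin 3 of 9, all higher (18.5% of all genes, 10.1% higher). The median log2FC of the 9 members in these 4 comparisons was 0.54, 0.15, 0.59 and 0.35, beside 0.08, 0.04, 0.15 and 0.11 over all genes tested. The share of members called in untreated cells was below that of all genes, and with 9 members no statement about the family is drawn from the other 3 counts. Comparisons that use the same groups share those samples and are not independent of each other.

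Oxaliplatin changed fewer members. In HCT116 cells 1 of 9 rose, AKR7A2, against 23.3% of all genes called and 13.1% called higher, and in HCT116 oxpl-R cells 1 of 9 rose, AKR1B10, against 4.12% called and 2.02% called higher. With E1A present, oxaliplatin gave 0 of 9 calls in HCT116 cells (10% of all genes) and 1 of 9 in HCT116 oxpl-R cells, AKR1B10 (2.06%, 1.12% higher). The count of 0 came with 3 of 9 members at an unadjusted p under 0.05 by edgeR and with 1 call by DESeq2, AKR7A2. The response to oxaliplatin differed between the lines for 2 of 9 members, AKR1B10 and AKR7A2, against 2.44% of 17876 genes.

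**Figure D3:**
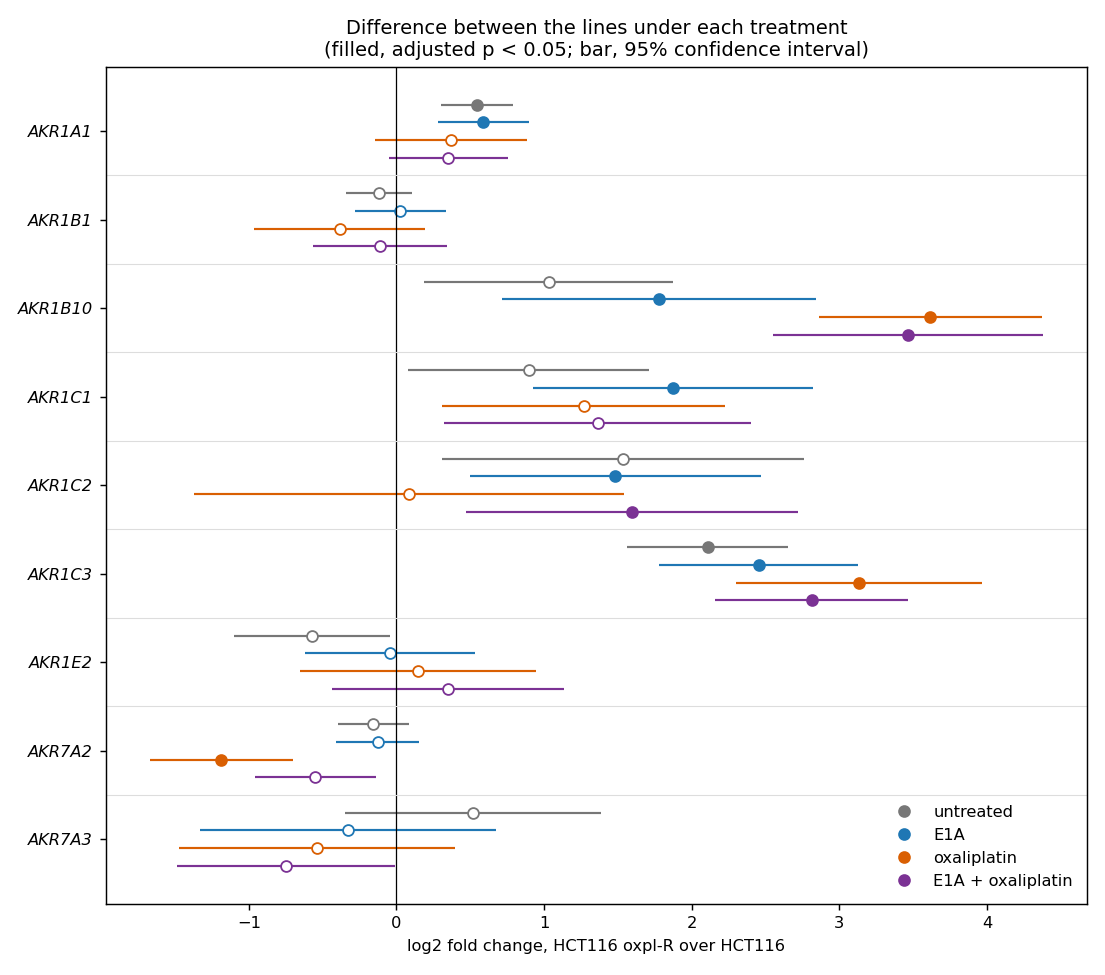
Difference between HCT116 oxpl-R and HCT116 cells (log2 fold change) for the 9 genes under each treatment, with 95% confidence intervals and filled points for an adjusted p under 0.05. AKR1C3 lies above 2 under all 4 treatments, AKR1B10 moves from 1.03 untreated to 3.62 under oxaliplatin, and AKR7A2 is at -1.18 under oxaliplatin.

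AKR1B10, an intestinal reductase of retinal and lipid aldehydes, gave the largest change of the family. In HCT116 cells it stayed low under every treatment: 31.3, 17.7 and 14.6 normalized counts in the 3 untreated samples, 10.3, 14.2 and 29.2 with E1A, 18.9, 30.8 and 34.2 with oxaliplatin and 6.15, 37.99 and 30.6 with E1A + oxaliplatin. HCT116 oxpl-R cells held 37.6, 52.5 and 40.02 untreated and 31.3, 59.4 and 79.2 with E1A. Oxaliplatin brought the resistant line to 368, 406 and 326, and E1A + oxaliplatin to 262, 232 and 335. The 6 resistant samples with oxaliplatin were thus all above the other 18, and the E1A + oxaliplatin and oxaliplatin groups overlapped each other.

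The rise of AKR1B10 with oxaliplatin in HCT116 oxpl-R cells was 8.47-fold (log2FC 3.08 (SE 0.26, adjusted p = 4.8e-05)), and with E1A present 4.71-fold (log2FC 2.23, SE 0.34, adjusted p = 0.00249). Both calls held in all 13 alternative analyses of each comparison. In HCT116 cells the response was 0.47 (SE 0.44, adjusted p = 0.491) on the log2 scale, with a 95% confidence interval of -0.52 to 1.46, and 0.54 (SE 0.59, adjusted p = 0.589) with E1A. The difference between the lines in this response was itself past the threshold (log2FC 2.63, SE 0.45, adjusted p = 0.00427, 95% confidence interval 1.69 to 3.57). For E1A + oxaliplatin against untreated cells, the difference between the lines in the response was 2.41 (SE 0.55, adjusted p = 0.054) and missed it. This E1A + oxaliplatin difference passed when any 1 of 5 libraries was left out. These were HCT116 E1A + oxaliplatin replicates 1, 2 and 3 (adjusted p = 0.0171, 0.018 and 0.0466) and untreated HCT116 oxpl-R replicates 2 and 3 (0.0118 and 0.0122). For oxaliplatin within E1A-induced cells the difference between the lines in the response was not tested. In bulk RNA more cells expressing a gene and more RNA per cell cannot be told apart.

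Between the lines AKR1B10 was 12.3-fold higher in HCT116 oxpl-R cells under oxaliplatin (log2FC 3.62, SE 0.35, adjusted p = 2.09e-05) and 11.02-fold higher under E1A + oxaliplatin (log2FC 3.46, SE 0.43, adjusted p = 5.31e-05). With E1A alone it was higher too (log2FC 1.78, SE 0.49, adjusted p = 0.0258). That call was lost without HCT116 E1A replicate 1, which held 10 counts (adjusted p = 0.102), or replicate 2, which held 14 (adjusted p = 0.0967). The untreated samples of the lines did not overlap, but the difference missed the threshold (log2FC 1.03, SE 0.39, adjusted p = 0.0664). It passed without untreated HCT116 replicate 1, the highest of its group (log2FC 1.43, adjusted p = 0.0332), or HCT116 oxpl-R replicate 3 (log2FC 1.11, adjusted p = 0.0322).

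AKR1B1, the aldose reductase of the polyol pathway, overlapped between the untreated lines. Untreated HCT116 cells held 3402, 3488 and 3340.5 normalized counts and untreated HCT116 oxpl-R cells 2920.1, 3095 and 3352 (log2FC -0.12, SE 0.10, adjusted p = 0.429, 95% confidence interval -0.34 to 0.10). Under oxaliplatin the HCT116 samples held 5084, 5252 and 2552, where the low value is that of the library that stands apart, and the HCT116 oxpl-R samples 3478, 3348 and 3652. No comparison called AKR1B1 with all samples. Without HCT116 oxaliplatin replicate 3, AKR1B1 rose with oxaliplatin in HCT116 cells (log2FC 0.64, adjusted p = 3.58e-05) and was lower in HCT116 oxpl-R cells under oxaliplatin (log2FC -0.65, adjusted p = 0.0434). The same happened with E1A present, where HCT116 cells held 3461, 3508 and 3772 without and 3150.1, 5145 and 4691 with oxaliplatin. There AKR1B1 rose without E1A + oxaliplatin replicate 1 (log2FC 0.51, adjusted p = 0.000337).

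AKR1C3, which reduces prostaglandin and androgen precursors, separated the lines under every treatment. In HCT116 cells it was at 26.4, 47.2 and 40.7 normalized counts untreated, 40.2, 31.5 and 30.4 with E1A, 30.4, 21.2 and 45.3 with oxaliplatin and 24.6, 45.99 and 54.3 with E1A + oxaliplatin. HCT116 oxpl-R cells held 162, 132 and 197 untreated and 119, 173 and 224 with E1A. They held 224, 315 and 372 with oxaliplatin and 287, 272 and 320.1 with E1A + oxaliplatin. The lowest of the 12 resistant samples was above the highest of the 12 HCT116 samples. AKR1C3 was 4.31-fold higher in the resistant line untreated (log2FC 2.11, SE 0.25, adjusted p = 4.79e-05), 5.48-fold with E1A (log2FC 2.45, SE 0.31, adjusted p = 0.000306), 8.79-fold with oxaliplatin (log2FC 3.14, SE 0.39, adjusted p = 0.000141) and 7.02-fold with E1A + oxaliplatin (log2FC 2.81, SE 0.31, adjusted p = 1.71e-05). All 4 calls held in each of their 13 alternatives.

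The AKR1C3 samples of HCT116 cells with and without oxaliplatin overlapped (log2FC -0.15, SE 0.39, adjusted p = 0.796). In HCT116 oxpl-R cells the oxaliplatin samples were all above the untreated ones, with a log2FC of 0.89 (SE 0.27, adjusted p = 0.0976), which missed the threshold. The call was made without oxaliplatin replicate 1, the lowest of its group (log2FC 1.06, adjusted p = 0.044). With E1A present the response of the resistant line was 0.72 (SE 0.28, adjusted p = 0.273). In that comparison, where samples of the same replicate number deviated together, the fit with the replicate number as a block called AKR1C3 (log2FC 0.77, SE 0.21, adjusted p = 0.00612) and took the count of members from 1 to 2, while the share of all genes called rose from 2.06% to 10.2%. Leaving out E1A replicate 3, the highest of the E1A group, also gave a call (log2FC 1.01, adjusted p = 0.0176). The difference between the lines in the response to oxaliplatin was not called (log2FC 1.06, SE 0.45, adjusted p = 0.248).

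AKR1C1, the 20α-hydroxysteroid dehydrogenase that inactivates progesterone, was a low gene in both lines. It was read at 33.3, 34.4 and 16.7 normalized counts in untreated HCT116 cells and 34.04, 54.5 and 68.5 in untreated HCT116 oxpl-R cells, and HCT116 oxpl-R replicate 1 lay below the highest HCT116 sample. With E1A, HCT116 cells held 15.5, 16.2 and 26.99 and HCT116 oxpl-R cells 43.2, 51.6 and 102, without overlap. AKR1C1 was higher in the resistant line with E1A (log2FC 1.87, SE 0.44, adjusted p = 0.0117), a call lost without HCT116 E1A replicate 1 (adjusted p = 0.0529) or replicate 2 (adjusted p = 0.0511).

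Under the other treatments AKR1C1 pointed the same way without a call, at 0.90 (SE 0.38, adjusted p = 0.0976) untreated, 1.27 (SE 0.45, adjusted p = 0.0609) with oxaliplatin and 1.36 (SE 0.49, adjusted p = 0.0651) with E1A + oxaliplatin on the log2 scale. Alternatives called it in 0 of 13 untreated, 3 of 13 with oxaliplatin and 6 of 13 with E1A + oxaliplatin. DESeq2 was among those with oxaliplatin (adjusted p = 0.0341). The oxaliplatin samples did not overlap, with 24.1, 15.9 and 21.2 in HCT116 and 41.1, 46.7 and 69.2 in HCT116 oxpl-R cells. Neither did the E1A + oxaliplatin samples, with 6.15, 46.99 and 38.5 and 73.8, 65.4 and 97.4, where the lowest value is that of a library that stands apart. With E1A + oxaliplatin the line difference passed without HCT116 replicate 2 (log2FC 1.81, adjusted p = 0.0195), HCT116 replicate 3 (log2FC 1.55, adjusted p = 0.0432) or HCT116 oxpl-R replicate 1 (log2FC 1.40, adjusted p = 0.023). Without HCT116 replicate 1, the library that stands apart, it was smaller and not called (log2FC 0.88, SE 0.33, adjusted p = 0.0665). In HCT116 cells with E1A, AKR1C1 rose with oxaliplatin only when E1A + oxaliplatin replicate 1 was left out (log2FC 1.17, adjusted p = 0.0333, against log2FC 0.70, SE 0.57, adjusted p = 0.506 with all samples).

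AKR1C2, a 3α-hydroxysteroid dehydrogenase that inactivates dihydrotestosterone, was the lowest member per length in untreated cells of both lines. Its normalized counts were 13.7, 6.88 and 4.18 in untreated HCT116 and 19.95, 29.3 and 23.2 in untreated HCT116 oxpl-R cells, without overlap but also without a call (log2FC 1.53, SE 0.57, adjusted p = 0.0607). Leaving out untreated HCT116 replicate 1 gave a call (log2FC 2.11, adjusted p = 0.0364). With all samples 3 alternative fits called it too (adjusted p = 0.0266 to 0.039), which made 4 of 13 alternatives. With E1A the values were 11.3, 20.3 and 16.9 and 23.7, 54.9 and 47.5, and with E1A + oxaliplatin 8.20, 8.999 and 38.5 and 42.9, 51.2 and 74.8. AKR1C2 passed in both (log2FC 1.48, SE 0.45, adjusted p = 0.0408 with E1A, and log2FC 1.59, SE 0.53, adjusted p = 0.0469 with E1A + oxaliplatin), and each call held in 6 of 13 alternatives.

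The AKR1C2 call with E1A was lost without HCT116 E1A replicate 1, 2 or 3 (adjusted p = 0.154, 0.0824 and 0.105) or HCT116 oxpl-R E1A replicate 2 (0.123). The call with E1A + oxaliplatin was lost without HCT116 replicate 1 or 2 (adjusted p = 0.0937 and 0.114) or HCT116 oxpl-R replicate 2 or 3 (0.06 and 0.181). With oxaliplatin alone the AKR1C2 samples overlapped, 13.6, 37.1 and 9.24 in HCT116 and 7.02, 31.1 and 29.3 in the resistant line (log2FC 0.09, SE 0.68, adjusted p = 0.948, 95% confidence interval -1.37 to 1.54).

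Since reads can be divided wrongly among the 3 AKR1C genes, their normalized counts were also summed. The sum was 74.5 ± 13.5 (SD, n = 3) in untreated HCT116 and 240.2 ± 41.9 in untreated HCT116 oxpl-R cells, a ratio of 3.22. The ratio was 4.01 with E1A, 5.20 with oxaliplatin and 4.72 with E1A + oxaliplatin. Every resistant sample had a higher sum than every HCT116 sample of the same treatment, whichever way the reads fell within the trio. AKR1C3 alone already separated the lines under every treatment, so the sum says nothing about AKR1C1 and AKR1C2 apart from it. A sum of AKR1C1 and AKR1C2 without AKR1C3 was not tested. AKR1C3 made up 51.8% ± 15.1 of the sum in untreated HCT116 cells and 68.2% ± 6.89 in untreated HCT116 oxpl-R cells, with 80.5% ± 1.64 in resistant cells under oxaliplatin. These shares are of read counts, not per length.

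**Figure D4:**
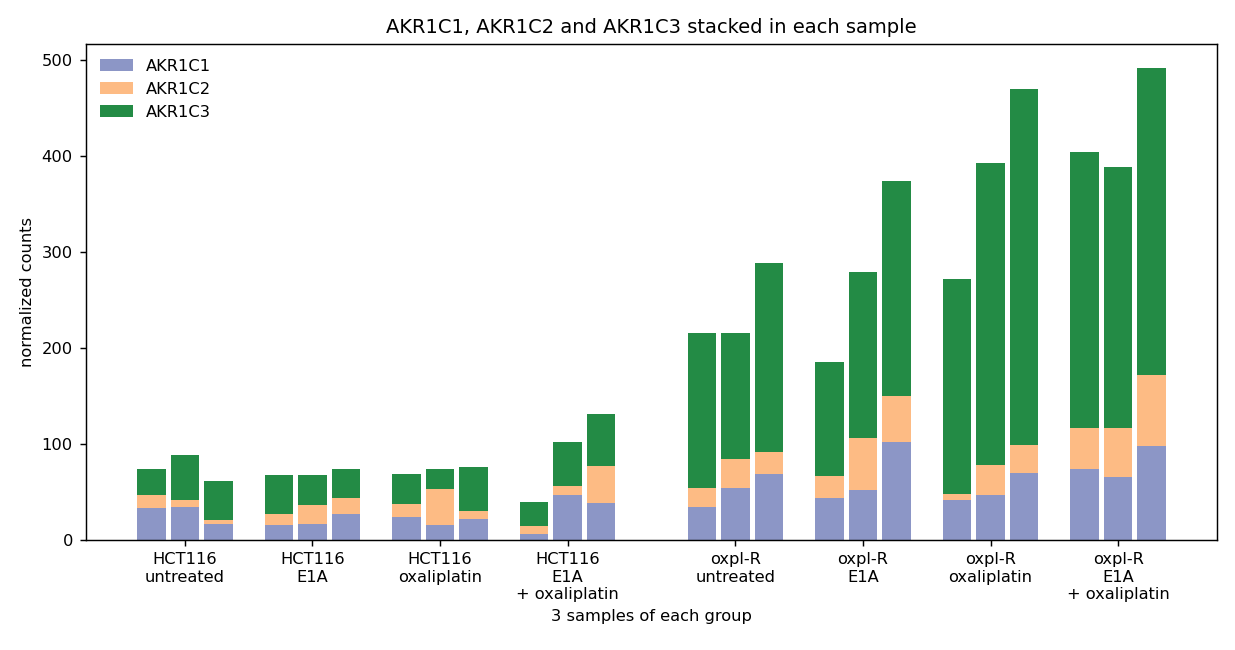
Normalized counts of AKR1C1, AKR1C2 and AKR1C3 stacked for each of the 24 samples, 3 bars per group. The stacks of HCT116 oxpl-R cells are taller than those of HCT116 cells under each treatment, and AKR1C3 forms most of each resistant stack.

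AKR1A1, the broadly expressed aldehyde reductase, was higher in the resistant line by a smaller margin. Untreated HCT116 cells held 5442, 5447 and 5407 normalized counts and untreated HCT116 oxpl-R cells 6872, 8729 and 8036 (log2FC 0.54, SE 0.11, adjusted p = 0.00269). With E1A the samples, 4798, 5053 and 5415 against 7275, 7855 and 6217, did not overlap either (log2FC 0.59, SE 0.14, adjusted p = 0.0137). The call in untreated cells held in 11 of 13 alternatives and that with E1A in 8 of 13. The latter was lost without HCT116 E1A replicate 1 or 2 (adjusted p = 0.102 and 0.092) or HCT116 oxpl-R E1A replicate 2 (0.104).

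Under oxaliplatin AKR1A1 was at 7823, 7364 and 4890.5 in HCT116 and 9934, 8657 and 8916 in HCT116 oxpl-R cells, not overlapping but not called (log2FC 0.37, SE 0.24, adjusted p = 0.324), as with E1A + oxaliplatin (log2FC 0.35, SE 0.19, adjusted p = 0.227). The response to oxaliplatin in HCT116 cells was not called with all samples (log2FC 0.38, SE 0.17, adjusted p = 0.154). It passed without oxaliplatin replicate 3, the library that stands apart (log2FC 0.52, adjusted p = 0.000235). With E1A present it passed without E1A + oxaliplatin replicate 1, the other such library (log2FC 0.36, adjusted p = 0.0116).

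AKR1E2, which reduces the sugar derivative 1,5-anhydrofructose, was not called in any of the 15 comparisons. It was at 78.3, 86.5 and 65.8 normalized counts in untreated HCT116 and 59.9, 47.4 and 47.4 in untreated HCT116 oxpl-R cells, lower in all 3 resistant samples (log2FC -0.57, SE 0.24, adjusted p = 0.104). Across the 8 groups its means ran from 51.6 to 77.4.

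AKR7A2, the succinic semialdehyde and aflatoxin aldehyde reductase, was the member that rose with oxaliplatin in HCT116 cells. Its normalized counts went from 4591, 4434 and 4949 untreated to 8572, 7387 and 6269 with oxaliplatin, without overlap, a 1.68-fold rise (log2FC 0.75, SE 0.14, adjusted p = 0.0057). The call held in all 13 alternatives, the fit without the library that stands apart included. In HCT116 oxpl-R cells the values were 3645, 4394 and 4425 untreated and 3285, 3997 and 3128 with oxaliplatin, overlapping and on average lower under the drug (log2FC -0.26, SE 0.18, adjusted p = 0.561).

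AKR7A2 was accordingly lower in the resistant line under oxaliplatin, by 2.27-fold (log2FC -1.18, SE 0.22, adjusted p = 0.00239), a call that held in all 13 alternatives, while in untreated cells, also without overlap, the difference missed the threshold (log2FC -0.16, SE 0.11, adjusted p = 0.339, 95% confidence interval -0.40 to 0.08). The difference between the lines in the response was -0.98 (SE 0.24, adjusted p = 0.0329) on the log2 scale. This call depended on most of the libraries, since it was made in 7 of 19 alternatives. Without any of 9 of the 12 libraries, all but HCT116 oxaliplatin replicate 3 and HCT116 oxpl-R oxaliplatin replicates 1 and 2, the adjusted p rose to between 0.0506 and 0.128, with log2FC between -1.06 and -0.89.

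With E1A present the AKR7A2 response of HCT116 cells had the same sign and a smaller size. HCT116 cells held 5136, 5299 and 4993 with E1A and 7337, 7265 and 6353 with E1A + oxaliplatin, without overlap, and the response just missed the threshold (log2FC 0.53, SE 0.16, adjusted p = 0.0538). It passed without E1A + oxaliplatin replicate 1 (log2FC 0.46, adjusted p = 0.0012) or replicate 3 (log2FC 0.61, adjusted p = 0.0405). HCT116 oxpl-R cells held 4489.7, 4372 and 4227 with E1A and 4312, 4326 and 5683 with E1A + oxaliplatin (log2FC 0.09, SE 0.17, adjusted p = 0.837). For E1A + oxaliplatin against untreated cells the difference between the lines in the response was not called (log2FC -0.43, adjusted p = 0.506). The line difference under E1A + oxaliplatin also missed the threshold (log2FC -0.55, SE 0.19, adjusted p = 0.0597). It passed without HCT116 replicate 1 (adjusted p = 0.0312) or HCT116 oxpl-R replicate 3, the highest of its group (adjusted p = 0.0255). With all samples 4 alternative fits called this line difference, DESeq2 among them (adjusted p = 0.0123 to 0.0485). The call was thus made in 6 of 13 alternatives.

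AKR7A3, its close relative in aflatoxin aldehyde reduction, was read from 16 to 57 counts per sample. In HCT116 cells it was at 20.6, 24.6 and 22.97 normalized counts untreated, 17.5, 23.4 and 40.5 with E1A, 28.3, 45.6 and 37.9 with oxaliplatin and 48.1, 55.99 and 56.2 with E1A + oxaliplatin. All oxaliplatin samples were above all untreated ones, yet neither response passed (log2FC 0.79, SE 0.35, adjusted p = 0.138 without E1A, and log2FC 1.06, SE 0.37, adjusted p = 0.0853 with it). The latter passed without E1A + oxaliplatin replicate 1 (log2FC 1.10, adjusted p = 0.0192). In HCT116 oxpl-R cells AKR7A3 was at 24.6, 25.2 and 47.4 untreated and 26.1, 31.1 and 24.6 with oxaliplatin (log2FC -0.25, SE 0.44, adjusted p = 0.797). The sum of AKR7A3 and AKR7L, with which it shares most of its repeated words, overlapped between the lines under all 4 treatments, at a ratio of HCT116 oxpl-R to HCT116 of 0.721 to 1.25.

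**Figure D5:**
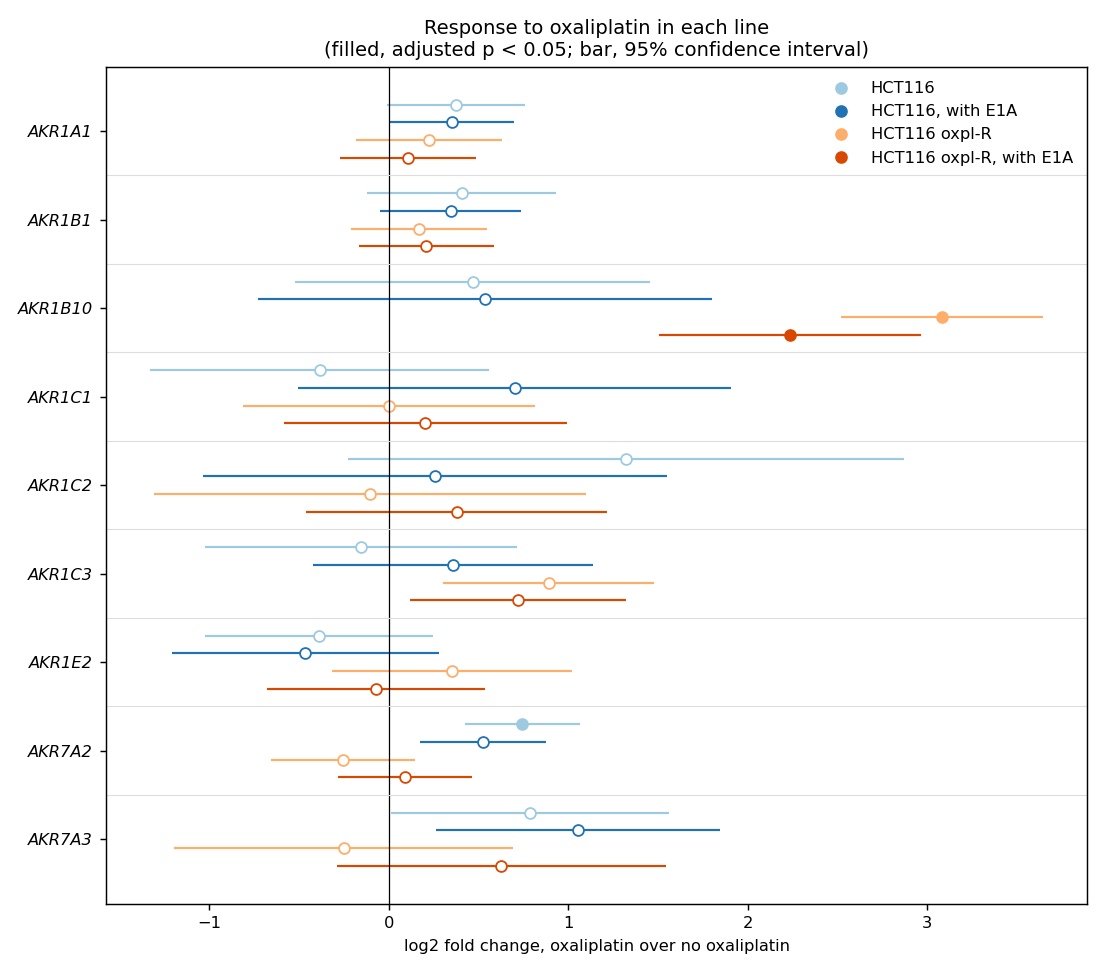
Response to oxaliplatin (log2 fold change) of the 9 genes in each line, without and with E1A, with 95% confidence intervals and filled points for an adjusted p under 0.05. AKR1B10 responds in HCT116 oxpl-R cells (3.08, and 2.23 with E1A) and AKR7A2 in HCT116 cells (0.75), and no other point is filled.

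Induction of E1A, which binds RB and the histone acetyltransferases p300 and CBP, changed no member past the threshold. The count was 0 of 9 for E1A against untreated in HCT116 cells (9.5% of all genes called by edgeR, between 0.579% and 15.2% in the other fits) and in HCT116 oxpl-R cells (0.0755%), with 0 members at an unadjusted p under 0.05 in either by edgeR and 0 calls by DESeq2. It was 0 of 9 for E1A added to oxaliplatin in HCT116 cells (0.0246% of all genes, 0 members at an unadjusted p under 0.05) and in HCT116 oxpl-R cells (0.638%, 2 members), again with 0 calls by DESeq2. Those 2 were AKR1C2 (log2FC 1.31, SE 0.49, adjusted p = 0.395), from 7.02, 31.1 and 29.3 normalized counts to 42.9, 51.2 and 74.8, and AKR7A2 (log2FC 0.46, SE 0.21, adjusted p = 0.589), from 3285, 3997 and 3128 to 4312, 4326 and 5683. In HCT116 cells the 95% confidence interval of the log2FC with E1A was -0.34 to 0.06 for AKR1A1, -0.17 to 0.23 for AKR1B1 and -0.09 to 0.29 for AKR7A2, and for the 6 low genes it was wider, as for AKR1C2 (-0.38 to 2.18). No member was called for a difference between the lines in the response to E1A (0 of 9 by edgeR and by DESeq2, 0 at an unadjusted p under 0.05, 0.0164% of all genes). For the response to E1A + oxaliplatin against untreated cells the count was 0 of 9 (0.352% of all genes), with AKR1B10 and AKR7A3 at an unadjusted p under 0.05 and 1 call by DESeq2, AKR1B10.

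Of 9 listed regulators of the NRF2 and AHR pathways, 5 differed between untreated lines, 3 higher and 2 lower (28.3% of all genes), with a median log2FC over the list of 0.18 beside 0.08 over all genes tested. AHR, the xenobiotic receptor, was higher in the resistant line (log2FC 2.03, SE 0.12, adjusted p = 8.15e-08), as were the small MAF protein gene MAFF (log2FC 0.53, SE 0.16, adjusted p = 0.0255) and NFE2L1 (log2FC 0.34, SE 0.11, adjusted p = 0.0265). NFE2L2, which encodes NRF2, was lower (log2FC -0.74, SE 0.11, adjusted p = 0.000249), and so was CUL3, part of the ligase that degrades NRF2 (log2FC -0.90, SE 0.12, adjusted p = 0.000131). Under oxaliplatin 3 of 9 differed between the lines (20.7% of all genes), with E1A 3 (17.7%) and with E1A + oxaliplatin 2 (18.5%), AHR being higher in each. Oxaliplatin changed 5 of the 9 in HCT116 cells, 3 higher and 2 lower (23.3% of all genes). It changed 0 of 9 in HCT116 oxpl-R cells by edgeR (4.12% of all genes), with 2 at an unadjusted p under 0.05 and 1 call by DESeq2.

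Of 24 listed NRF2 targets outside the family, 17 were in the count table, 4 (SLC7A11, SRXN1, TALDO1, TKT) were listed in the second table only, and TXN, TXNRD1 and UGDH were not analysed here. Between untreated lines 15 of the 17 differed, in both directions, with 7 higher and 8 lower (28.3% of all genes, 14.1% higher). Their median log2FC was -0.16, beside 0.08 over all genes tested. NQO1, the quinone reductase, was higher in the resistant line (log2FC 0.91, SE 0.14, adjusted p = 0.000291), and so was CYP4F11 (log2FC 1.68, SE 0.16, adjusted p = 5.91e-06). Lower were GSR, glutathione reductase (log2FC -1.75, SE 0.10, adjusted p = 7.79e-08), and the efflux pump gene ABCC2 (log2FC -1.06, SE 0.11, adjusted p = 1.48e-05). Oxaliplatin changed 7 of 17 in HCT116 cells, 5 higher and 2 lower (23.3% of all genes), and 1 of 17 in HCT116 oxpl-R cells (4.12%), where CYP4F11 rose (log2FC 0.90, SE 0.18, adjusted p = 0.0115).

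Other enzymes that clear carbonyls were tested for comparison, 20 of the 21 listed being in the count table. Between untreated lines 7 of 20 differed, 5 higher and 2 lower, a share near the 28.3% of all genes, and their median log2FC was 0.04 beside 0.08 over all genes tested. The 5 with the smallest adjusted p were all higher in HCT116 oxpl-R cells, the aldehyde dehydrogenases ALDH3A1 (log2FC 2.40, SE 0.20, adjusted p = 2.34e-06), ALDH1A3 (log2FC 1.39, SE 0.13, adjusted p = 6.1e-06), ALDH3B1 (log2FC 1.31, SE 0.13, adjusted p = 7.86e-06) and ALDH2 (log2FC 0.65, SE 0.10, adjusted p = 0.000457), and the carbonyl reductase CBR3 (log2FC 1.81, SE 0.21, adjusted p = 3.6e-05). ALDH3A1 also rose with oxaliplatin in HCT116 cells (log2FC 1.65, SE 0.27, adjusted p = 0.00303) and in the resistant line (log2FC 1.44, SE 0.27, adjusted p = 0.00859). In the resistant line 1 of the 20 was called by edgeR, a share near the 4.12% of all genes, and 3 by DESeq2.

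Of the 8 other aldo-keto reductase genes, AKR1C4 and AKR1C8 were at 0 counts in all 24 samples, which allows up to 3 counts a sample, or 0.121 CPM in the smallest library (counting error only). AKR1B15 reached 1 count and AKR1D1, the steroid 5β-reductase, 3. AKR7L had 8 to 34 counts. The potassium channel subunits of the same fold were led by KCNAB2 at 317 to 719 counts, with KCNAB3 at 8 to 91 and KCNAB1 at 0 to 42.

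The members with the most similar profiles over the 24 samples were AKR1B10 and AKR1C3, with a Pearson r of 0.86 between log2(CPM + 1) values, followed by AKR1C1 and AKR1C3 at 0.84, out of 36 pairs. The lowest was -0.69, between AKR1C3 and AKR7A2. These values describe 24 samples that share 8 groups, so they are not independent points.

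Over 11097 genes with a mean of at least 10 counts, none of the 3 genes most like each member was itself a member. AKR1B10 was closest to ASTN2 (Pearson r = 0.96), FRMPD2 (0.96) and ANKRA2 (0.96), AKR1C3 to SERPINB1 (0.97), KCNH8 (0.96) and SERPINA1 (0.96), and AKR7A2 to PRADC1 (0.97), ARF5 (0.96) and PAM16 (0.96). AKR1A1 was closest to KRT15 (0.94) and S100A2 (0.93), AKR1B1 to DERL2 (0.89), COQ10A (0.88) and ATRAID (0.88), and AKR1C1 to IFT22 (0.90), IL17RB (0.89) and SCML1 (0.89). AKR1C2 was closest to MEIG1 (0.89), LINC01366 (0.84) and LRRC51 (0.83), AKR7A3 to GREP1 (0.79), KIF12 (0.77) and FBXL8 (0.75), and AKR1E2 to COMMD1 (0.68), LINC01572 (0.68) and MRPL9 (0.67). By Spearman's rho 7 of the 27 nearest genes were again among the nearest 3.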

How the data were processed

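RNA-seq was analysed for 24 samples in 8 groups of 3. Per the study's methods and the submitters' processing notes, the authors trimmed reads with Trimmomatic and quantified transcripts with Salmon 1.6.0 against GRCh38. The deposited values are estimated counts per gene symbol, and a second deposited table, named TPM, holds length-scaled estimated counts judged from its totals (28004261 to 42613322 per sample). In the tables used here 33113 genes ran to SETP6 in the count table and 37967 to TSC22D3 in the second, and an incomplete last row of each was dropped. Per library 15.9% to 30.4% of the genes had an estimated count that was not whole. The highest shares were in HCT116 oxpl-R oxaliplatin replicates 1 (30.4%) and 3 (25.3%).

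Estimated counts were rounded and tested for each comparison with edgeR 4.0.16 (R 4.3.3, TMM, quasi-likelihood F-test) on each gene counted at least once in the samples compared, with Benjamini-Hochberg adjustment and a threshold of 0.05. SE is log2FC over the root of F. Normalized counts use TMM over all 24 samples. Levels per kb used GENCODE 44 (GRCh38; the authors used a later release). Fits were tested on simulated data.

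Alternatives were RLE, DESeq2 1.42.0 (the study's tool), filterByExpr, all 24 samples in one fit, a replicate block, limma 3.58.1 on the second table as log2(value + 1) or log2(value + 0.1), and each sample left out. Same-numbered samples deviated together in the line comparison under oxaliplatin (r = 0.141, 0.186 and 0.252) and in the oxaliplatin response with E1A of HCT116 oxpl-R cells (0.403, 0.473 and 0.518), a pairing taken from these data; in the other 10 pairs of groups at least 1 r was 0.1 or lower.

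All 9 members were described in every comparison. The 5 genes named per list had the smallest adjusted p between untreated lines. The 3 genes named as like each member had the highest Pearson r. A gene that either rule names but the text omits is not reported here. Members and lists were chosen with earlier results of these data known.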

Additional observations from a re-analysis of the deposited data

Results flagged for a closer look

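For 2 members the effect of oxaliplatin differed between the lines by the test of the difference itself. AKR1B10 rose in HCT116 oxpl-R cells (log2FC 3.08, adjusted p = 4.8e-05) and was at 0.47 (SE 0.44, adjusted p = 0.491) in HCT116 cells, a difference of 2.63 on the log2 scale (SE 0.45, adjusted p = 0.00427) that was called in all 19 alternatives.

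AKR7A2 rose in HCT116 cells (log2FC 0.75, adjusted p = 0.0057) and was at -0.26 (SE 0.18, adjusted p = 0.561) in HCT116 oxpl-R cells, a difference of -0.98 (SE 0.24, adjusted p = 0.0329). That difference kept its sign in all 19 alternatives and its call in 7. Without HCT116 oxaliplatin replicate 3, the library that stands apart, it was still called.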

How the results depend on the processing

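Of 135 log2FC values (9 members in 15 comparisons) 18 were called, and 11 of these were called under every alternative. No called value changed sign among the 1926 alternative values; 41 lost a call and 45 gained one. The calls that held throughout were those of AKR1B10 and AKR1C3 between the lines under oxaliplatin and E1A + oxaliplatin, AKR1C3 in untreated and E1A cells, AKR7A2 between the lines under oxaliplatin and in response to it in HCT116 cells, AKR1B10 in response to oxaliplatin in HCT116 oxpl-R cells without and with E1A, and AKR1B10 in the difference between the lines in the oxaliplatin response without E1A.

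Counts of called members that moved by over 1.5 times, or from 0, are given by setting, and 7 others moved by 1; for tools the cause was not tested. The filter filterByExpr, which tests fewer genes, gave 4 in untreated lines (2 in the report), with 44.7% of all genes called. For oxaliplatin with E1A in HCT116 cells it gave 1 (0), with 16.6% of all genes called. All 24 samples in one fit gave 5 between the lines under oxaliplatin (3), with 31.8% of all genes called. Under E1A + oxaliplatin that fit gave 5 (3), with 23.1% of all genes called. RLE gave 5 under E1A + oxaliplatin (19.9% of all genes called), 4 higher and 1 lower, against 3 higher and 0 lower. DESeq2 gave 1 for oxaliplatin with E1A in HCT116 cells (0), with 19.6% of all genes called. For the difference of the E1A + oxaliplatin responses it gave 1 (0), with 3.21% of all genes called. Limma on the second table gave 1 between the lines with E1A (5), with 9.85% or 10% of all genes called by pseudocount. For the difference of the oxaliplatin responses it gave 1 (2), with 1.21% or 1.14% of all genes called. A replicate block gave 2 for oxaliplatin in HCT116 oxpl-R cells (1), where AKR1C3 was added (10.5% of all genes called), and 2 with E1A there (1, 10.2%). It gave 1 for oxaliplatin with E1A in HCT116 cells (0), where AKR7A3 was added (12.6%). For the difference of the oxaliplatin responses it gave 1 (2), where AKR7A2 was lost (2.03%). The block also added AKR1C1 between the lines under E1A + oxaliplatin and changed no other call.

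Leaving out each sample in turn gave 2 to 4 called members between untreated lines, 3 to 4 under oxaliplatin, 1 to 5 with E1A and 2 to 4 with E1A + oxaliplatin. For oxaliplatin it gave 1 to 3 in HCT116 cells and 1 to 2 in HCT116 oxpl-R cells, and with E1A 0 to 5 and 1 to 2. For the difference of the oxaliplatin responses it gave 1 to 2, for that of the E1A + oxaliplatin responses 0 to 1, and 0 in the other 5 comparisons. Without untreated HCT116 replicate 1 the untreated lines had 4 called members. Without HCT116 E1A replicate 1 or replicate 2 the line difference with E1A had 1 called member, and without HCT116 oxpl-R E1A replicate 2 it had 3. Without HCT116 E1A + oxaliplatin replicate 1 oxaliplatin with E1A called 5 members in HCT116 cells, and without replicate 3 it called 1. The shares of all genes called in the fits without a sample are not given here. These counts therefore show only how the calls depend on single samples and are not read as results about the members. Leaving out both libraries that stand apart, chosen after seeing the data, left 0 calls by edgeR for E1A added to oxaliplatin in HCT116 cells, with 3 members at an unadjusted p under 0.05.

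The share of all genes called for E1A in HCT116 cells (9.5%) was 0.579% with all samples in one fit, 0.737% with a replicate block and 0.972% to 1.35% with limma; that for oxaliplatin in HCT116 oxpl-R cells (4.12%) ran from 2.69% to 10.5% over the alternatives, with E1A there (2.06%) from 0.849% to 10.2%, and for the difference of the oxaliplatin responses (2.44%) from 1.14% to 11.9%. The median log2FC of all genes moved by -0.11 in the fit of all samples and by -0.20 under filterByExpr for the line difference with E1A, and by up to 0.39 in the second table. AKR1B10, AKR1C1, AKR1C2, AKR1E2 and AKR7A3 were read at under 100 counts in most samples, which widens their confidence intervals.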
